A study of Mus musculus with 12 samples.

Results

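SREBP transcription factors switch on the genes that make cholesterol and fatty acids, and 33 mouse genes of that programme were followed here across 12 liver RNA-seq libraries in 5 groups. They were taken by symbol from a count table of 41128 genes. All 33 were found, and all passed the filter on low counts in both sets of libraries. A sterol arm holds 17 of them, and a fatty acid and triglyceride arm holds 16. The peritumoral group (3 libraries) was made of hepatocytes from livers carrying tumours, which had been started by hydrodynamic injection of 1 µg SB11 transposase, 20 µg myc-NICD and 4 µg myr-ha-Akt plasmid and had grown for 8 weeks. Its counterpart was an untreated group (3 libraries), and both groups carry the alleles Lats1tm1.1Jfm/RjoJ and Lats2tm1.1Jfm/RjoJ and are titled wild type. The sources used here do not say whether a Cre was present. The other 6 libraries came from CD-1 IGS mice: 2 controls, 2 taken 24 h and 2 taken 48 h after a single intraperitoneal dose of thioacetamide (TAA), a liver toxin that hepatocytes around the central vein activate. Every label gives an age of 8 weeks and a Percoll-purified hepatocyte preparation, but the series design calls the TAA material livers, and it is called liver here. The tumour-bearing mice were injected at 8 weeks, so their age at harvest may be higher than labelled.

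Cells read their own lipid content through SREBPs, which are made as membrane proteins of the endoplasmic reticulum. When sterols are scarce, the escort protein SCAP carries them to the Golgi, where proteases release the part that enters the nucleus. When sterols are plentiful, INSIG proteins hold SCAP back. SREBP2, from Srebf2, acts mainly on cholesterol genes, while SREBP1c, from Srebf1, acts mainly on fatty acid genes and answers to insulin. ChREBP, from Mlxipl, drives much of the same fatty acid programme in liver in response to sugar.

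Total counts ran from 9640845 to 13692235 in liver libraries and from 16228747 to 18522324 in hepatocyte libraries, and the lowest count of any member in any library was 23 (Pnpla3). Levels are CPM, counts scaled to library size with TMM factors, and differences are log2 fold changes ± SE from edgeR, with p-values adjusted by Benjamini-Hochberg over all genes tested. A member is called when its adjusted p is under 0.05. The labels do not tell whether replicate libraries stem from different mice, and p-values therefore refer to library-to-library spread alone, part of which may be technical. TMM factors ran from 0.750 to 1.31 and were lowest in the control livers. With library totals in place of these factors, the median of all genes lay at 0.53 (24 h over control), 0.68 (48 h over control), 0.21 (48 h over 24 h) and 0.23 (peritumoral over untreated) on the log2 scale, against 0.02, -0.03, 0.01 and -0.02 with them. No arm median below changed sign under that scaling.

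After TAA the sterol arm was around or above control at 24 h and far below it at 48 h, while the fatty acid arm, with TMM scaling, was low at 24 h and lower still at 48 h. Per library, the mean log2 level of the 17 sterol genes over the control mean was 0.29 and -0.29 in control livers, 0.53 and 0.24 at 24 h, and -1.91 and -1.30 at 48 h. The same average of the 16 fatty acid genes was 0.27 and -0.27 in control livers, -1.05 and -0.58 at 24 h, and -1.84 and -1.83 at 48 h. Subtracting the fatty acid from the sterol average within each library gave 0.02 and -0.02 in control livers, 1.58 and 0.83 at 24 h, and -0.07 and 0.53 at 48 h. This gap was larger in both 24 h libraries than in any other liver library. Without scaling factors the sterol averages were 0.30 and -0.30 in control livers, 1.05 and 0.73 at 24 h, and -1.18 and -0.63 at 48 h. The fatty acid averages were then 0.28 and -0.28 in control livers, -0.52 and -0.09 at 24 h, and -1.11 and -1.16 at 48 h, so that 24 h replicate 2 lay within the range of the controls. These averages are descriptions and carry no test.

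**Figure D1:**
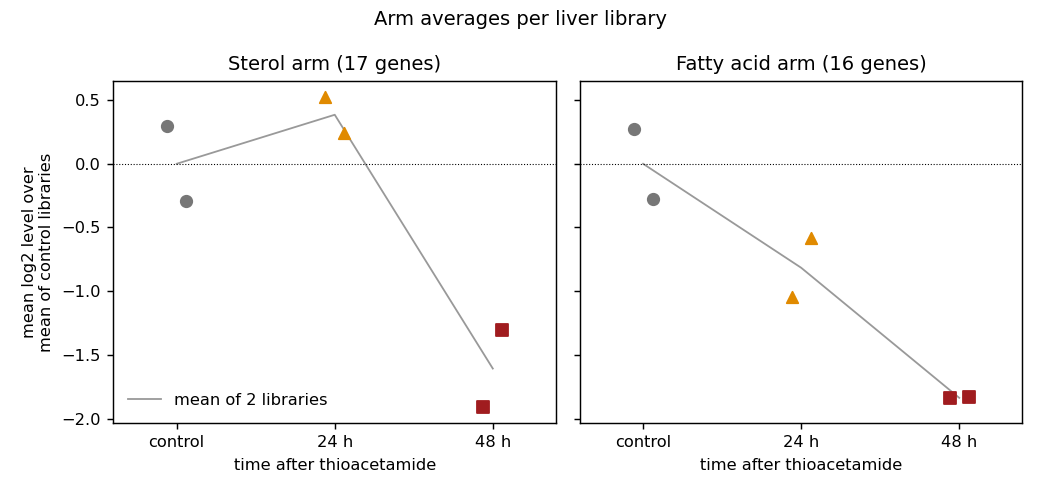
Mean log2 level of the sterol arm (left, 17 genes) and the fatty acid arm (right, 16 genes) in each liver library, relative to the mean of the control libraries, with 0.5 CPM added before taking logs; points are libraries and the line joins the means of 2 libraries. The sterol arm is at 0.53 and 0.24 at 24 h and at -1.91 and -1.30 at 48 h, while the fatty acid arm is at -1.05 and -0.58 and then at -1.84 and -1.83.

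Since SREBPs bind sterol regulatory elements beside the general factor NF-Y, promoter sequences are shown for 7 members: 4 sterol genes and 3 fatty acid genes. RefSeq promoters on GRCm38.p6 (250 bases before to 50 after a gene's start) were at hand for 26 of the 33 members, 13 in each arm, and some genes have a window at more than 1 start. Each stretch reads 5′ to 3′ on the gene's strand, and capitals mark the sterol regulatory element core TCACNCCAC and the NF-Y box CCAAT, which reads ATTGG on the other strand; in Fasn 2 boxes on opposite strands overlap. No printed stretch overlaps an annotated exon in GENCODE M21.
Hmgcs1: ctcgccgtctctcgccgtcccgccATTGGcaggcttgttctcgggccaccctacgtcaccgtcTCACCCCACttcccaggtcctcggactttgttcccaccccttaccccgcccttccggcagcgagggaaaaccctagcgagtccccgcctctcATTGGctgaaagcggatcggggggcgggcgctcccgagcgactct
Mvk: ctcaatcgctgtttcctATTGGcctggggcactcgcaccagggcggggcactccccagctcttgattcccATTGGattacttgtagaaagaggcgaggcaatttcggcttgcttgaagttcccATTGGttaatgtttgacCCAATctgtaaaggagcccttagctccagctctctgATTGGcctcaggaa
Mvd: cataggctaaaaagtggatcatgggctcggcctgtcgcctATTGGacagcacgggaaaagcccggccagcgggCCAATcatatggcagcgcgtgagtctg
Sc5d: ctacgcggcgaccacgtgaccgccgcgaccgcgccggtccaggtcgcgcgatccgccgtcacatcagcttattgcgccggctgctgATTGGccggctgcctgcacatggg
Fasn: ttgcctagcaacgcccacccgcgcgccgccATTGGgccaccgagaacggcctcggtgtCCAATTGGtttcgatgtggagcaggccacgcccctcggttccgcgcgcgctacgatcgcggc
Pnpla3: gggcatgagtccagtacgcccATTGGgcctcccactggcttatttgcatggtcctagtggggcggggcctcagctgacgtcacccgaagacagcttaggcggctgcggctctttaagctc
Mlxipl: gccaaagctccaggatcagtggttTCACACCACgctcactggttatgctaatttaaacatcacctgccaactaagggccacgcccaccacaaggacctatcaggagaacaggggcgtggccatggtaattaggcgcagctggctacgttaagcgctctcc

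The stretches lie at chr13:119690151-119690350 (plus strand) for Hmgcs1, chr5:114444079-114444268 (plus strand) for Mvk, chr8:122443423-122443522 (minus strand) for Mvd, chr9:42264301-42264410 (minus strand) for Sc5d, chr11:120824548-120824667 (minus strand) for Fasn, chr15:84167696-84167815 (plus strand) for Pnpla3 and chr5:135106731-135106890 (plus strand) for Mlxipl. The NF-Y box was found, on either strand, in 13 of 13 sterol genes and 10 of 13 fatty acid genes, against 41.1% of 27025 genes with such promoters; per promoter of equal length the shares were 81.2%, 61.1% and 37.4%. The Mvk stretch holds 5 such boxes and the Hmgcs1 stretch 2. The exact TCACNCCAC core was found in 1 of 13 sterol genes (Hmgcs1) and 1 of 13 fatty acid genes (Mlxipl), against 1.44% of all genes. The Mlxipl match lies in a window at a start inside the gene, and the window at its first start (chr5:135089640-135089939) holds no such core. The E box CACGTG, a sequence that SREBP1c can also bind, was found in 3 of 13 and 2 of 13 genes, against 8.09% of all genes. A match is a string of letters in a window and is no measure of binding.

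The early mevalonate pathway turns acetyl-CoA units into farnesyl diphosphate, and 5 of its 6 members were called lower at 48 h than at 24 h. Hmgcs1, which makes HMG-CoA, stood at 769.6 and 435 CPM in control livers, 887 and 596 CPM at 24 h, and 101 and 141 CPM at 48 h. Its 24 h and control libraries overlapped, and both 48 h libraries lay below all others (48 h over 24 h, -2.61 ± 0.34, adjusted p = 0.0165). Pmvk, the phosphomevalonate kinase, had 84.7 and 58.3 CPM in control livers, 64.2 and 59.5 CPM at 24 h, and 15.7 and 20.6 CPM at 48 h. It had the smallest p of the sterol arm against control at 48 h (-1.98 ± 0.22, adjusted p = 0.000774), and 48 h over 24 h it stood at -1.77 ± 0.22 (adjusted p = 0.0146). Mvd, the decarboxylase that follows, had 29.3 and 17.8 CPM in control livers, 43.4 and 30.6 CPM at 24 h, and 6.76 and 10.2 CPM at 48 h. The 3 groups of Mvd did not overlap, with 24 h on top, and 48 h over 24 h it stood at -2.12 ± 0.32 (adjusted p = 0.0230). Mvk, mevalonate kinase, passed no test at either time (48 h over 24 h, -1.38 ± 0.36, adjusted p = 0.0705), although its 2 libraries at 24 h were above all 4 others.

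Idi1, the isomerase of the isoprenoid building block, had 56.6 and 39.2 CPM in control livers, 99.6 and 80.1 CPM at 24 h, and 7.50 and 20.3 CPM at 48 h (48 h over 24 h, -2.69 ± 0.45, adjusted p = 0.0256). Fdps, which builds farnesyl diphosphate, had 262 and 155 CPM in control livers, 434 and 310.2 CPM at 24 h, and 35.5 and 51.3 CPM at 48 h. All 3 groups of both genes were separate, in the order 24 h, control, 48 h. Fdps fell by 3.10 ± 0.33 on the log2 scale at 48 h relative to 24 h, an 8.58-fold lower level (adjusted p = 0.0114), and it stood at -2.27 ± 0.32 relative to control (adjusted p = 0.00170). Another gene model, Gm43738, covers 26.7% of the Fdps exons on the same strand, so reads of the pair may be shared.

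The 8 members of the squalene-to-cholesterol steps were likewise all lower at 48 h than at 24 h. Fdft1, squalene synthase, had 193 and 119.7 CPM in control livers, 235 and 181 CPM at 24 h, and 43.7 and 51.7 CPM at 48 h. Sqle, the squalene epoxidase that is a main control point of the pathway, had 169 and 96.5 CPM in control livers, 266 and 239 CPM at 24 h, and 47.7 and 75.4 CPM at 48 h. Sqle was the only sterol member called higher at 24 h in edgeR (0.93 ± 0.30, adjusted p = 0.0489), and it fell by 2.03 ± 0.31 between the times (adjusted p = 0.0230). That 24 h call was lost without either 24 h library, without control replicate 2, without a count filter and with all 12 libraries in 1 fit. Lss, which closes the rings to lanosterol, had 143 and 96.3 CPM in control livers, 261 and 165 CPM at 24 h, and 30.5 and 54.1 CPM at 48 h. Cyp51, the lanosterol demethylase, had 266 and 162 CPM in control livers, 476 and 306 CPM at 24 h, and 47.3 and 69.5 CPM at 48 h. For Sqle, Lss and Cyp51 the 24 h libraries were all above the controls and the 48 h libraries all below them.

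Among the later steps, Msmo1, a methylsterol oxidase, had 230.4 and 144 CPM in control livers, 329 and 257 CPM at 24 h, and 37.8 and 84.6 CPM at 48 h. Nsdhl, the dehydrogenase that works beside it, had 112 and 74.7 CPM in control livers, 161 and 129 CPM at 24 h, and 28.4 and 38.5 CPM at 48 h. Dhcr7, the reductase of a last step, had 152 and 95.2 CPM in control livers, 199 and 179 CPM at 24 h, and 51.3 and 62.9 CPM at 48 h. These genes kept the order 24 h, control, 48 h with no overlap of groups. The changes of Fdft1, Lss, Cyp51, Msmo1, Nsdhl and Dhcr7 between 24 h and 48 h ran from -2.74 (Cyp51) to -1.72 (Dhcr7), with adjusted p between 0.0133 (Nsdhl) and 0.0299 (Msmo1). Sc5d, a late desaturase, was low already at 24 h and had 779 and 411 CPM in control livers, 273 and 245 CPM at 24 h, and 83.9 and 113 CPM at 48 h. It was the only sterol member called lower at 24 h (-1.20 ± 0.30, adjusted p = 0.0205), and its groups stepped down at each time with no overlap, to 6.04-fold lower at 48 h than in control (-2.60 ± 0.32, adjusted p = 0.00107).

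Of the regulators and the carrier in the sterol arm, none was called at 24 h and all 3 were lower than control at 48 h. Srebf2 had 117 and 109 CPM in control livers, 108 and 93.8 CPM at 24 h, and 56.1 and 70.5 CPM at 48 h. Its level fell by 0.83 ± 0.15 on the log2 scale at 48 h relative to control (adjusted p = 0.00446), a smaller change than that of any called sterol enzyme. At 48 h over 24 h it stood at -0.67 ± 0.15 (adjusted p = 0.0466). With library totals edgeR called neither: -0.12 ± 0.15 at 48 h over control (adjusted p = 0.477) and -0.48 ± 0.15 at 48 h over 24 h (adjusted p = 0.0824). Insig1, which retains SCAP and is itself a classic SREBP target, had 436 and 421 CPM in control livers, 268 and 425 CPM at 24 h, and 58.4 and 146 CPM at 48 h. It overlapped control at 24 h and was lower at 48 h (-2.07 ± 0.43, adjusted p = 0.00779), while the difference between the times missed the threshold (-1.76 ± 0.42, adjusted p = 0.0578). Stard4, a carrier that moves cholesterol between membranes, had 171 and 198 CPM in control livers, 143 and 130.1 CPM at 24 h, and 67.9 and 85.1 CPM at 48 h. Its groups declined without overlap, with -1.27 ± 0.15 at 48 h over control (adjusted p = 0.00103) and -0.84 ± 0.15 at 48 h over 24 h (adjusted p = 0.0307).

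**Figure D2:**
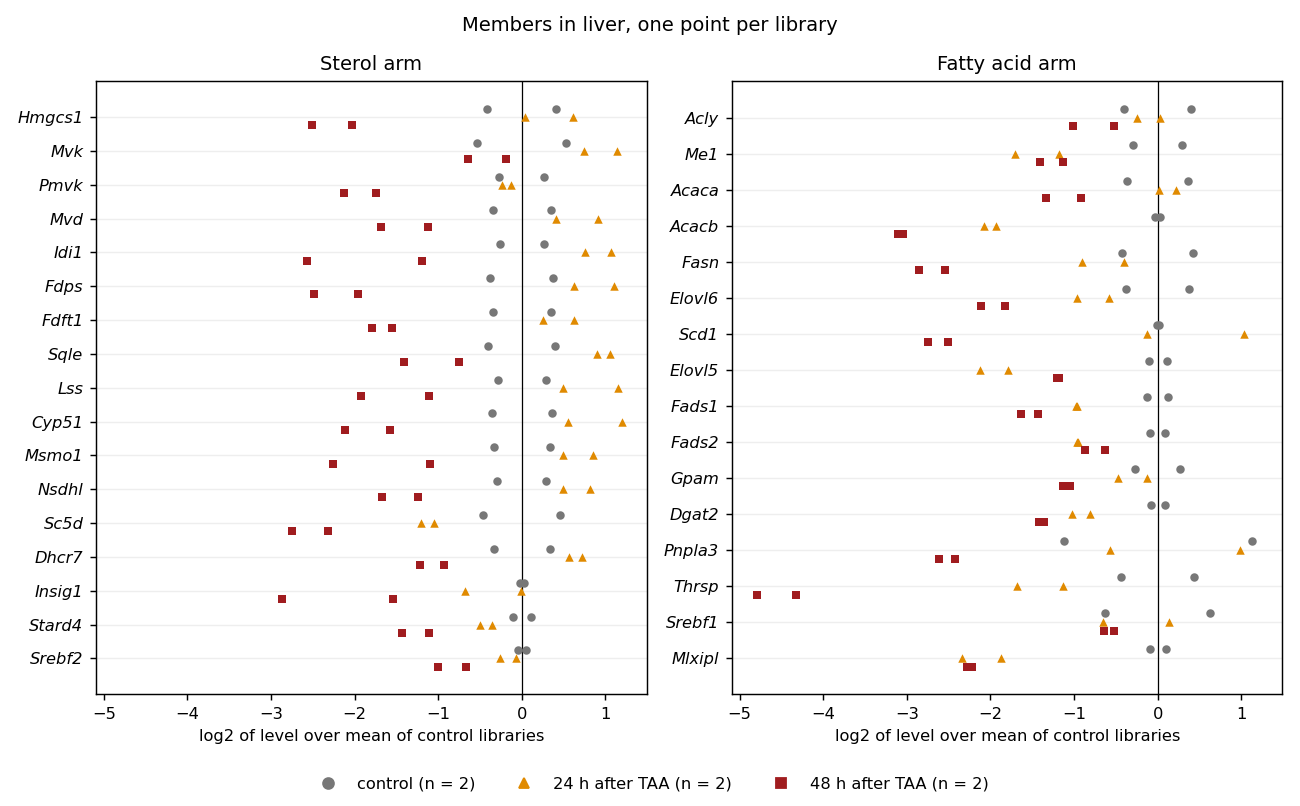
Log2 level of each member in each liver library relative to the mean of the control libraries (0.5 CPM added), sterol arm left and fatty acid arm right, 2 libraries a group. Most sterol enzymes have both 24 h points right of the control points and both 48 h points left of them, whereas most fatty acid members have both TAA groups left of control.

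At 24 h over control, 1 of 17 sterol members was called higher, 1 lower, and 15 did not pass, where 21.3% and 20.5% of all 13497 genes were called higher and lower. In 10 members both 24 h libraries were above both controls, but the share of all genes separated in this way was not counted. The arm's median was 0.63 against 0.02 for all genes, and 12 of 17 values were above 0. The median was 0.98 without control replicate 1, 0.32 without control replicate 2 and 1.15 with library totals. The 14 enzymes alone had a median of 0.65, with 12 above 0. Calls in this comparison depended on single libraries and on the tool. Without control replicate 1, whose sterol genes were higher than those of replicate 2 in 16 of 17 cases, 7 members were called, all higher. No member was called higher without control replicate 2 or either 24 h library. DESeq2 called 6 members higher and 1 lower, and edgeR with library totals called 11 higher and lost the call of Sc5d (adjusted p = 0.0869).

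At 48 h over control, 16 of 17 sterol members were called lower and none higher, with Mvk alone not passing, where 23.9% of all genes were called lower and 25.0% higher. The median was -1.61 against -0.03 for all genes, and leaving out a library left between 12 and 17 members called. With library totals the median was -0.91 and 9 members were called. The edgeR calls lost were those of Srebf2 (adjusted p = 0.477), Sqle (0.266), Dhcr7 (0.156), Lss (0.0740), Msmo1 (0.0704), Mvd (0.0688) and Idi1 (0.0555). At 48 h over 24 h, 15 of 17 were called lower and none higher, where 2.36% of all genes were called lower and 4.96% higher. All 17 had both 48 h libraries below both 24 h libraries, but the share of all genes separated in this way was not counted. The median was -2.12 against 0.01. Leaving out a TAA library leaves its group with 1 library. Fewer members, and fewer genes of the whole table, were then called in each case, so lost calls cannot be told from lost power. The sterol median was then -1.95 without 24 h replicate 1 and -2.31 without 24 h replicate 2. It was -1.80 without 48 h replicate 1 and -2.40 without 48 h replicate 2. The 24 h and 48 h comparisons share the 2 control libraries.

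Of the transcription factors of the fatty acid arm, Mlxipl was called lower at both times and Srebf1 at neither. Srebf1 had 889 and 373 CPM in control livers, 366 and 634 CPM at 24 h, and 399.6 and 369 CPM at 48 h. The controls alone differed by more than any group means, all groups overlapped, and no comparison passed (48 h over control, -0.72 ± 0.42, adjusted p = 0.200). Mlxipl had 344 and 392 CPM in control livers, 72.4 and 100.2 CPM at 24 h, and 78.6 and 75.2 CPM at 48 h. It was 4.27-fold lower than control at 24 h (-2.09 ± 0.18, adjusted p = 0.000623) and stayed near that level at 48 h (-2.26 ± 0.18, adjusted p = 0.000329). Thrsp, a nuclear protein that follows carbohydrate feeding and lipogenesis, had 276 and 150.4 CPM in control livers, 63.4 and 92.9 CPM at 24 h, and 9.73 and 6.87 CPM at 48 h. Its groups stepped down without overlap, to a level 25.7-fold lower than control at 48 h (-4.68 ± 0.38, adjusted p = 0.000330), of all 33 members the largest change at that time, and 48 h over 24 h it stood at -3.24 ± 0.36 (adjusted p = 0.0121).

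Of the enzymes around malonyl-CoA, Acacb and the NADPH source Me1 were called lower at both times, and Acaca and Fasn at 48 h. Acacb, the carboxylase isoform at the mitochondrion whose product restrains fatty acid oxidation, had 101 and 106 CPM in control livers, 24.2 and 26.7 CPM at 24 h, and 11.6 and 12.1 CPM at 48 h. It had the smallest p of all members in both comparisons with control (24 h, -2.03 ± 0.12, adjusted p = 0.000346; 48 h, -3.12 ± 0.13, adjusted p = 0.000113), and it fell again by 1.10 ± 0.12 between the times (adjusted p = 0.0117). Acaca, the cytosolic isoform that supplies synthesis, had 80.0 and 48.1 CPM in control livers, 62.9 and 72.4 CPM at 24 h, and 24.3 and 32.6 CPM at 48 h. Fasn, the fatty acid synthase, had 1062 and 588 CPM in control livers, 422 and 598 CPM at 24 h, and 109 and 135 CPM at 48 h. Both Acaca and Fasn overlapped control at 24 h and were below every other library at 48 h, with -1.25 ± 0.26 (adjusted p = 0.0416) and -2.07 ± 0.32 (adjusted p = 0.0230) at 48 h over 24 h. Acly, which makes cytosolic acetyl-CoA from citrate, was not called at any time (48 h over control, -0.80 ± 0.29, adjusted p = 0.0585). Me1, the malic enzyme that yields NADPH, was lower than control at 24 h (-1.46 ± 0.25, adjusted p = 0.00532) and at 48 h (-1.30 ± 0.25, adjusted p = 0.00596).

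Among desaturases and elongases, Elovl5, Elovl6, Fads1 and Fads2 were called lower at 24 h, and all of these and Scd1 at 48 h. Scd1, which makes oleate, had 2367 and 2408 CPM in control livers, 2194 and 4881 CPM at 24 h, and 354 and 419 CPM at 48 h. The 24 h libraries differed widely and lay around control (0.57 ± 0.36, adjusted p = 0.248; called higher with library totals, 1.07 ± 0.35, adjusted p = 0.0368), and the 48 h level was 9.15-fold lower than that at 24 h (-3.19 ± 0.40, adjusted p = 0.0146). Elovl6, which lengthens palmitate, had 163 and 96.0 CPM in control livers, 64.0 and 83.5 CPM at 24 h, and 28.6 and 34.9 CPM at 48 h. It fell by 0.81 ± 0.27 at 24 h relative to control (adjusted p = 0.0483), a call that held in 1 of 6 fits with a library left out, and 48 h over 24 h it stood at -1.22 ± 0.27 (adjusted p = 0.0468). Elovl5, an elongase of polyunsaturated fatty acids, had 844 and 979.8 CPM in control livers, 209 and 263 CPM at 24 h, and 395 and 402 CPM at 48 h. It was 3.87-fold lower than control at 24 h (-1.95 ± 0.17, adjusted p = 0.000623), and it was the only member called higher at 48 h than at 24 h (0.76 ± 0.16, adjusted p = 0.0427), while still below control (-1.19 ± 0.16). Fads2, a polyunsaturated fatty acid desaturase, had 412 and 366 CPM in control livers, 201 and 199.5 CPM at 24 h, and 251 and 212 CPM at 48 h. Both TAA groups were below control (24 h, -0.96 ± 0.14, adjusted p = 0.00259; 48 h, -0.75 ± 0.13, adjusted p = 0.00462). Fads1, its partner desaturase, was also lower (24 h, -0.98 ± 0.15; 48 h, -1.54 ± 0.15).

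In triglyceride synthesis, Dgat2, which adds the last acyl chain, had 627 and 559 CPM in control livers, 291 and 337 CPM at 24 h, and 231 and 221 CPM at 48 h. Its groups did not overlap, and it was lower than control at 24 h (-0.92 ± 0.14, adjusted p = 0.00304) and 48 h (-1.39 ± 0.14, adjusted p = 0.000532). Gpam, the acyltransferase of the entry step, was called at 48 h (-1.12 ± 0.21, adjusted p = 0.00499) and not at 24 h (-0.31 ± 0.20, adjusted p = 0.254). Pnpla3, a lipid droplet protein, was lower at 48 h over control (-3.07 ± 0.82, adjusted p = 0.0211), but its control libraries, at 51.5 and 10.4 CPM, were themselves far apart. That call held in 3 of 6 fits with a library left out.

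At 24 h over control, 9 of 16 fatty acid members were called lower and none higher, where the shares of all genes were 20.5% and 21.3%. At 48 h, 14 of 16 were called lower and none higher, with Acly and Srebf1 not passing, where the shares were 23.9% and 25.0%. The medians were -0.87 and -1.46 against 0.02 and -0.03 for all genes, and leaving out a library left 8 to 10 and 12 to 16 members called. With library totals the medians were -0.36 at 24 h and -0.75 at 48 h, and the calls of Elovl6 at 24 h (adjusted p = 0.348) and of Acaca (0.146), Fads2 (0.842), Gpam (0.121) and Me1 (0.0758) at 48 h over control were lost in edgeR. At 48 h over 24 h, 6 of 16 were called lower and 1 higher (2.36% and 4.96% of all genes), with a median of -0.73. With a TAA library left out, which leaves its group with 1 library, fewer fatty acid members were called in each case. The median was then -0.88 without 24 h replicate 1 and -0.63 without 24 h replicate 2. It was -0.76 without 48 h replicate 1 and -0.84 without 48 h replicate 2. Between the times the sterol median of -2.12 thus lay beside a fatty acid median of -0.73, and 15 of 17 calls beside 7 of 16.

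**Figure D3:**
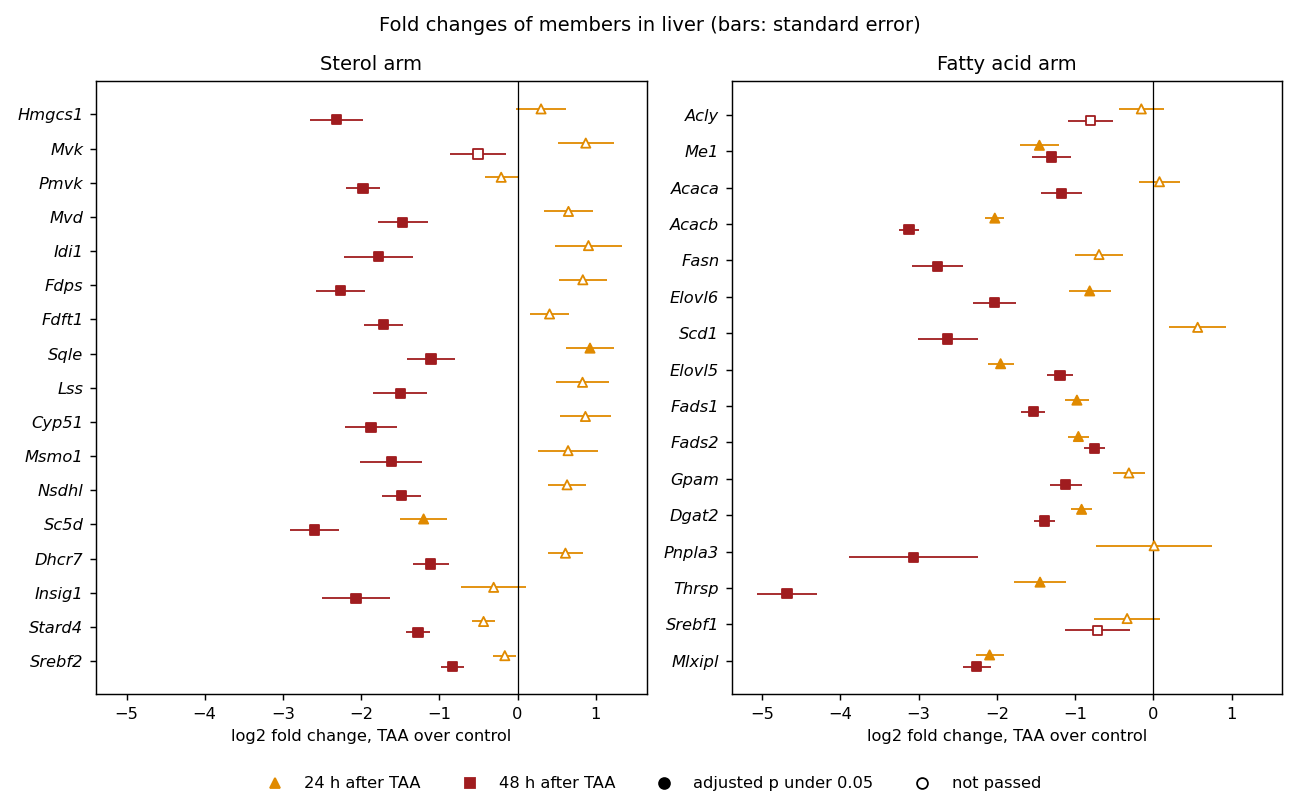
Log2 fold change over control of each member at 24 h (triangles) and 48 h (squares) after TAA, with SE as bars; filled symbols have an adjusted p under 0.05. Sterol members at 24 h are mostly open and right of 0 (12 of 17 above 0), while at 48 h 16 of 17 are filled and left of 0, and in the fatty acid arm 9 and 14 of 16 are filled and left of 0.

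Other cell types moved in the same libraries. Summed over 8 stellate and fibroblast markers, unscaled CPM (no TMM factor) ran from 79.7 to 128 in control livers, 426 to 468 at 24 h and 1473 to 2097 at 48 h, and 8 of 8 were called higher at 48 h over control. The 8 macrophage markers ran from 52.4 to 119 in control livers, 321 to 429 at 24 h and 684 to 1148 at 48 h, also with 8 of 8 called higher at 48 h. The 10 hepatocyte markers ran from 180961 to 184212 in control livers, 129049 to 145261 at 24 h and 125802 to 129741 at 48 h, with 4 of 10 and 5 of 10 called lower at 24 h and 48 h. The 7 endothelial markers ran from 121 to 144 in control livers, 286 to 387 at 24 h and 336 to 466 at 48 h, with 4 of 7 called higher at 24 h and 5 of 7 at 48 h. The 7 biliary markers ran from 58.9 to 64.2 in control livers, 146 to 163 at 24 h and 208 to 309 at 48 h, with 4 of 7 called higher at 24 h, and 2 of 7 higher and 1 lower at 48 h. Of all genes, 21.3% were called higher and 20.5% lower at 24 h, and 25.0% higher and 23.9% lower at 48 h. At 48 h over 24 h, 0 of 10 hepatocyte markers were called (median 0.31), and 0 of 7 endothelial markers. In that comparison 4 of 8 macrophage and 3 of 8 stellate and fibroblast markers were called higher. Biliary markers had 1 of 7 higher and 1 lower, where 4.96% of all genes were called higher and 2.36% lower. All 6 neutrophil markers were at 0 in both control livers, and their sum reached at most 6.23 after TAA. The 5 lymphocyte markers summed to at most 1.39 in any liver library. Of 5 adipocyte markers, Plin1 and Lep were at 0 in all 6 liver libraries and Cfd in every TAA library, and only Fabp4 had counts in every liver library. The list summed to between 0.676 and 1.48 in control livers, 14.1 and 16.4 at 24 h and 27.7 and 35.8 at 48 h. Only 1 of the 5 was tested, and it was called higher at both times, so the rise is not one of the list as a whole. The part of these shifts in the members' changes was not tested, and in bulk RNA fewer hepatocytes and less RNA per hepatocyte cannot be told apart.

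Beside liver tumours few members were called. In peritumoral against untreated hepatocytes, 2 of 17 sterol members (Fdps and Lss) and 1 of 16 fatty acid members (Gpam) were called lower and none higher, where 10.2% of 13442 genes were called lower and 19.0% higher. The medians were -0.45 for the sterol arm and -0.54 for the fatty acid arm, against -0.02 for all genes, and 15 of 17 and 11 of 16 values were below 0. The sterol median was -0.25 without peritumoral replicate 2 and -0.71 without untreated replicate 3, and the fatty acid median -0.12 and -0.23. With library totals the medians were -0.29 for the sterol arm and -0.35 for the fatty acid arm. At an unadjusted p under 0.05 the counts, in either direction, were 5 and 3, but the share of all genes at that threshold was not counted. At the stricter adjusted threshold 3930 of the 13442 genes were called in either direction, so the 2 counts are not read as an excess. The share of members called lower was near or below that of all genes.

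Fdps had 160.2, 128 and 199 CPM in peritumoral and 285, 328 and 269 CPM in untreated hepatocytes, with no overlap (-0.86 ± 0.21, adjusted p = 0.0259). Lss had 73.2, 68.7 and 93.2 CPM in peritumoral and 160.5, 180.2 and 103 CPM in untreated hepatocytes, again apart (-0.92 ± 0.24, adjusted p = 0.0333). Gpam had 107, 95.3 and 117 CPM in peritumoral and 169, 179 and 191 CPM in untreated hepatocytes (-0.76 ± 0.15, adjusted p = 0.0135). With library totals all 3 calls were lost, with adjusted p of 0.0807 (Fdps), 0.144 (Lss) and 0.0815 (Gpam). These calls rest on few libraries: no sterol member was called without peritumoral replicate 1, untreated replicate 1 or untreated replicate 2, 1 without peritumoral replicate 2, and 4 without untreated replicate 3. For the fatty acid arm the count was 0 without untreated replicate 1 or 2, 3 without peritumoral replicate 2, and 2 without peritumoral replicate 3 or untreated replicate 3.

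Of the regulators, Srebf1 had 268, 136 and 273 CPM in peritumoral and 423, 417 and 392 CPM in untreated hepatocytes. All peritumoral libraries were lower, but the test missed the threshold (-0.86 ± 0.29, adjusted p = 0.0649). Srebf2 had 86.4, 82.8 and 105 CPM in peritumoral and 116, 95.9 and 73.5 CPM in untreated hepatocytes, which overlap (-0.06 ± 0.21, adjusted p = 0.859). Insig1 had 299, 87.6 and 229 CPM in peritumoral and 256, 237 and 232 CPM in untreated hepatocytes (-0.24 ± 0.41, adjusted p = 0.700). Mlxipl had 235, 75.9 and 196 CPM in peritumoral and 185, 250.5 and 353 CPM in untreated hepatocytes (-0.64 ± 0.44, adjusted p = 0.314). The low peritumoral value of Insig1 and of Mlxipl belonged to replicate 2 in each case. Me1 was the only member whose peritumoral libraries were all higher, at 103 ± 12.04 against 65.5 ± 16.4 CPM in untreated hepatocytes (SD, n = 3 each; 0.65 ± 0.21, adjusted p = 0.0587 in edgeR). With library totals edgeR called it higher (0.91 ± 0.20, adjusted p = 0.0145).

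Spread between hepatocyte libraries was wide and followed single libraries. With TMM scaling, peritumoral replicate 2 was below replicate 1 in 17 of 17 sterol and 15 of 16 fatty acid members. Its sterol and fatty acid averages were -0.93 and -1.24 relative to the untreated mean. The averages of replicates 1 and 3 were -0.28 and -0.17 for the sterol arm and -0.02 and 0.03 for the fatty acid arm. Without scaling factors the sterol averages of peritumoral replicates 1, 2 and 3 were -0.15, -0.42 and -0.095, and that of untreated replicate 3 was lower, at -0.48. The fatty acid averages of the peritumoral replicates were then 0.11, -0.74 and 0.11. Scd1 had 3532, 160.4 and 1564 CPM in peritumoral and 1427, 1624 and 5339 CPM in untreated hepatocytes, so untreated replicate 3 stood apart too. The 7 biliary markers summed to 1112, 10276 and 775 unscaled CPM in peritumoral replicates 1, 2 and 3 and to between 50.6 and 73.6 in untreated hepatocytes, with 5 of 7 called higher. The 10 hepatocyte markers summed to 112331, 80854 and 143915 in the same peritumoral libraries and to between 98534 and 100547 in untreated hepatocytes, with none called. Stellate and fibroblast markers summed to 1322, 2439 and 698 in the peritumoral libraries and to between 46.5 and 114 in untreated hepatocytes. Among the peritumoral libraries, replicate 2 had the lowest arm averages with and without scaling factors. It also had the highest biliary, stellate and adipocyte sums and the lowest hepatocyte sum. Other lists peaked in replicate 3, whose arm averages were nearer to the untreated mean than those of replicate 2. Macrophage markers summed to 1173, 1733 and 3307 unscaled CPM in peritumoral replicates 1, 2 and 3, and endothelial markers to 822, 950 and 1323. Neutrophil and lymphocyte sums were highest in replicate 3 too. Stellate and fibroblast (6 of 8), endothelial (7 of 7), macrophage (7 of 8) and neutrophil (5 of 6) markers were also called higher. So was 1 of 5 adipocyte markers, with the other 4 not tested, and none of the 5 lymphocyte markers was tested. Of all genes, 19.0% were called higher and 10.2% lower in this comparison. The part of these cells in the differences was not tested.

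**Figure D4:**
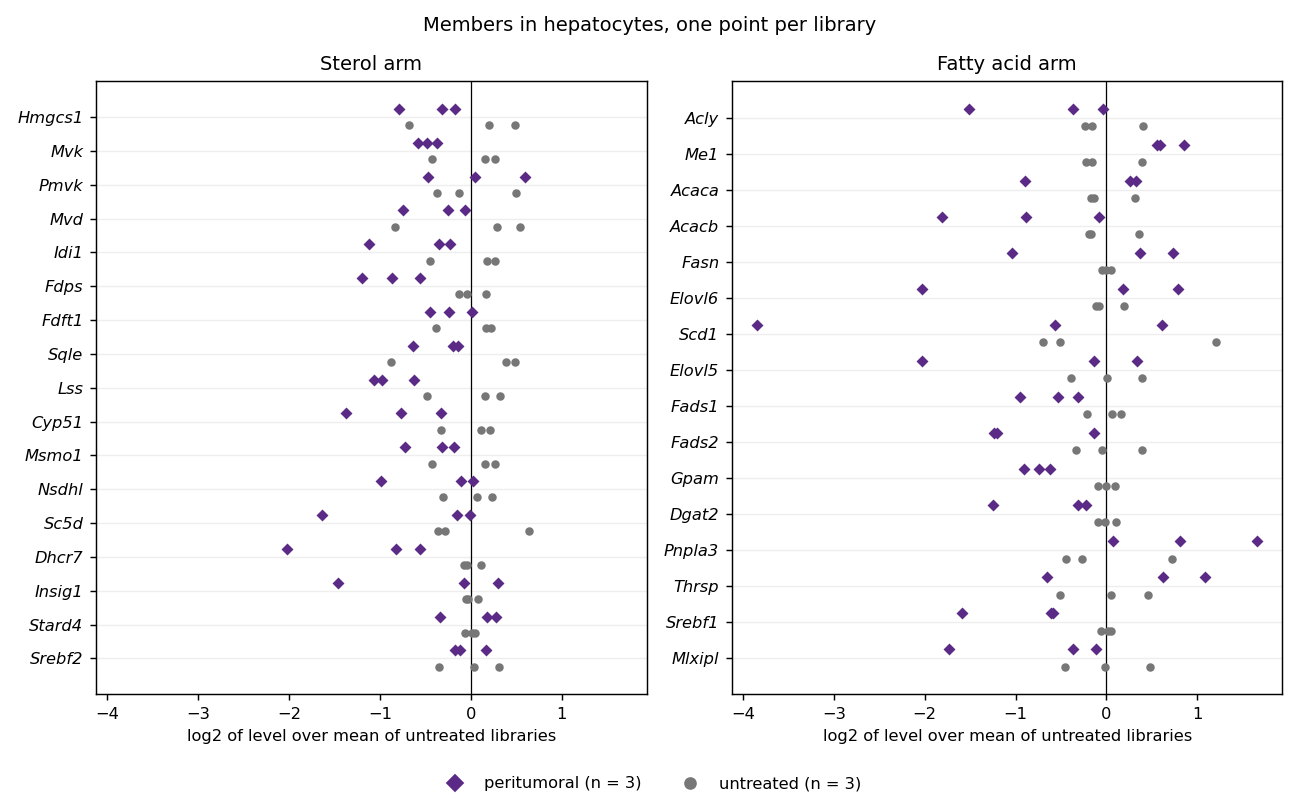
Log2 level of each member in each hepatocyte library relative to the mean of the untreated libraries (0.5 CPM added), sterol arm left and fatty acid arm right, 3 libraries a group. Peritumoral and untreated points overlap for most members, and 1 peritumoral library is far left of the rest for Scd1, Elovl6 and Elovl5.

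Per kilobase of exon, Scd1 was the most abundant fatty acid member in 4 groups, at 358 CPM per kb in peritumoral and 572 in untreated hepatocytes, and at 488 in control livers and 723 at 24 h after TAA. That order held in every library of these groups except peritumoral replicate 2, where Scd1, at 32.8 CPM per kb, was behind Fads2 (116), Fads1 (68.0), Dgat2 (59.3) and Thrsp (46.7). At 48 h Elovl5, at 113 CPM per kb, was ahead of Scd1, at 79.0. In the sterol arm Insig1 or Hmgcs1 ranked highest in every liver group: Insig1 at 139 and Hmgcs1 at 131 CPM per kb in control livers, Hmgcs1 at 161 and Insig1 at 112 at 24 h, and Insig1 at 33.1 and Hmgcs1 at 26.4 at 48 h. Insig1 also ranked highest in the mean of peritumoral hepatocytes (66.3), though Hmgcs1 (33.3) led in replicate 2, and Sc5d (78.4) and Insig1 (78.1) were nearly level in untreated hepatocytes. The per-library levels of Insig1 and Hmgcs1 overlapped in every liver group, as did those of Sc5d and Insig1 in untreated hepatocytes.

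Genes around the pathway that are not among the 33 were read as 5 lists. For all genes, the shares called higher and lower were 21.3% and 20.5% at 24 h, 25.0% and 23.9% at 48 h, and 19.0% and 10.2% in peritumoral hepatocytes. At both times the share called higher was below that of all genes in each list. Of 10 other sterol enzymes, 1 was called higher and 3 lower at 24 h, and 8 lower at 48 h, with medians of -0.12 and -0.95. Tm7sf2, a sterol reductase, was lower at 24 h (-1.28 ± 0.16) and 48 h (-2.56 ± 0.16), as was Ebp, a sterol isomerase (24 h, -0.88 ± 0.12, and 48 h, -1.45 ± 0.12). Of 12 genes of SREBP processing and its control, 7 were called lower at 24 h and 6 at 48 h, none higher, and none was called between the times. Scap, the escort of SREBPs, was lower by 1.10 ± 0.11 at 24 h and 1.49 ± 0.11 at 48 h. Insig2, a relative of Insig1, was at -1.84 ± 0.28 at 24 h, and Rnf139, a ubiquitin ligase of the endoplasmic reticulum, at -0.97 ± 0.13 at 48 h. In peritumoral hepatocytes no gene of the other sterol enzymes passed (Lbr, 0.59 ± 0.20, adjusted p = 0.0674; Hsd17b7, -0.52 ± 0.18, adjusted p = 0.0751). Ubxn4 alone of the processing list did (-0.99 ± 0.26, adjusted p = 0.0331), and Scap was next (-0.73 ± 0.24, adjusted p = 0.0590).

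Of 16 genes for sterol uptake, esterification and export, 15 were tested; 2 were called higher and 7 lower at 24 h, 3 higher and 10 lower at 48 h, and 4 higher and 4 lower in peritumoral hepatocytes. Abcg8, part of the biliary sterol exporter, was lower at 24 h (-1.18 ± 0.15) and 48 h (-2.68 ± 0.15), and so was Lcat, the enzyme that esterifies cholesterol in plasma (24 h, -1.55 ± 0.13, and 48 h, -1.57 ± 0.13). Mylip, a ligase that degrades lipoprotein receptors (2.58 ± 0.26), and Soat1, a cholesterol acyltransferase (2.79 ± 0.31), were higher in peritumoral hepatocytes. Of 11 genes that supply carbon and NADPH, 2 were higher and 5 lower at 24 h, 2 higher and 7 lower at 48 h, and none passed in peritumoral hepatocytes, where Slc25a1, the citrate carrier, had the smallest p (-0.81 ± 0.28, adjusted p = 0.0680), followed by Pgd, a dehydrogenase of the pentose phosphate pathway (-0.93 ± 0.33, adjusted p = 0.0772). G6pdx, the entry enzyme of the pentose phosphate pathway, was higher by 3.25 ± 0.31 at 24 h, while Idh1, a cytosolic NADPH source, was lower (-1.10 ± 0.14). At 48 h the fructose kinase Khk was lower (-1.91 ± 0.20). Of 11 genes of triglyceride assembly, 10 were tested; 5 were lower at 24 h, 8 at 48 h and 2 in peritumoral hepatocytes, and none was higher. Acsl1, which activates fatty acids, was at -2.50 ± 0.30 and Agpat3, an acyltransferase, at -0.86 ± 0.11 at 24 h, with Agpat3 at -0.80 ± 0.11 and Agpat2 at -0.94 ± 0.14 at 48 h. In peritumoral hepatocytes Mttp, the triglyceride transfer protein of lipoprotein assembly, was at -1.15 ± 0.29 and Dgat1 at -0.60 ± 0.18.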

How the data were processed

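All 12 libraries hold polyadenylated mouse RNA made with a stranded mRNA kit, per the labels' protocols. The authors deposited raw counts per gene, whole numbers for 41128 genes, and these were the only expression data tested here. Their second table, on a per-library scale, was only compared with the counts. Scaled back by library totals, 100% of its values for 17311 genes lay within 0.001 of the raw count. The tools STAR and DESeq2 and the builds mm10 and GRCm38 are named, with no version or role, per the submitters' processing notes. The strand setting of counting is not stated, so genes that overlap in either direction (antisense models cover 18.3% of Fdft1 and 12.1% of Hmgcs1 exons) may share reads. Groups came from sample titles.

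The tests used edgeR 4.0.16 (R 4.3.3) and its quasi-likelihood F test on the counts, two-sided, after TMM scaling and filterByExpr (minimum count 10, total 15). P-values were adjusted by Benjamini-Hochberg over all genes of a fit at a threshold of 0.05, with a prior count of 0.125. Hepatocyte libraries formed 1 fit (13442 genes) and liver libraries another (13497 genes), so CPM of the families were scaled separately. Libraries of a group differed beyond sampling noise (chi-square per degree of freedom 16.9 to 232), and none was counted as a duplicate. Alternatives were RLE factors, library totals, DESeq2 1.42.0, no filter, 1 fit of all 12 libraries, a block for the replicate number, each library left out and, chosen after seeing the data, edgeR's legacy dispersion.

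The members and the gene lists were chosen with earlier results of these data known. Values in every library are given for Srebf1, Srebf2, Insig1, Mlxipl and the 4 called members of each arm with the smallest p in a comparison (between 48 h and 24 h, all called members), and of each further list the 2 genes with the smallest p are named per comparison with a control or untreated group, except 1 that is not reported here. Promoters came from RefSeq (GRCm38.p6), and exon lengths and overlaps from GENCODE M21 (GRCm38).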

Additional observations from a re-analysis of the deposited data

Results flagged for a closer look

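For 22 members the change after TAA differed between 48 h and 24 h by a test of that difference itself (edgeR's quasi-likelihood test, Benjamini-Hochberg adjusted over all genes, 2 libraries each), 21 lower and 1 higher at 48 h. Of all genes, 2.36% were called lower and 4.96% higher in that test. As described above, fewer members of both arms were called when a TAA group was left with 1 library, while the arm medians stayed below 0. The log2 differences, 48 h minus 24 h, of the 15 sterol members were -2.61 for Hmgcs1, -1.77 for Pmvk, -2.12 for Mvd, -2.69 for Idi1, -3.10 for Fdps, -2.12 for Fdft1, -2.03 for Sqle and -2.33 for Lss. The further sterol values were -2.74 for Cyp51, -2.26 for Msmo1, -2.12 for Nsdhl, -1.39 for Sc5d, -1.72 for Dhcr7, -0.84 for Stard4 and -0.67 for Srebf2. The 7 fatty acid members stood at -1.25 for Acaca, -1.10 for Acacb, -2.07 for Fasn, -1.22 for Elovl6, -3.19 for Scd1, 0.76 for Elovl5 and -3.24 for Thrsp. Srebf2, Elovl6 and Sc5d were nearest to the threshold, with adjusted p of 0.0466, 0.0468 and 0.0457. With library totals edgeR no longer called Srebf2 (adjusted p = 0.0824) or Elovl6 (adjusted p = 0.0544).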

How the results depend on the processing

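No call changed direction under any alternative. Of 429 member values a comparison, 399 (peritumoral), 378 (24 h), 396 (48 h) and 314 (48 h over 24 h) stayed on their side of the threshold. With all 12 libraries in 1 fit, 5941 genes were called in peritumoral hepatocytes (3930 in the separate fit), 3255 at 24 h (5644) and 131 between the times (989). In that fit 3, 5, 9 and 1 fatty acid members were called (1, 9, 14 and 7 in the separate fits, in the order peritumoral, 24 h, 48 h and between the times), and 0 sterol members at 24 h and 8 between the times (2 and 15). DESeq2 called 3 fatty acid members in peritumoral hepatocytes, 7 sterol members at 24 h, and 1517 genes and 11 fatty acid members between the times. Without a count filter, 654 genes and 4 fatty acid members were called between the times and 1 sterol member at 24 h. RLE factors called 2 fatty acid members in peritumoral hepatocytes. With library totals the sterol counts were 0 in peritumoral hepatocytes, 11 at 24 h (all higher) and 9 at 48 h, and the all-gene calls split into 2593 higher and 205 lower (peritumoral; 2560 and 1370 with TMM), 6127 and 1228 (24 h; 2877 and 2767), 7661 and 971 (48 h; 3372 and 3226) and 1281 and 181 (between the times; 670 and 319). The cause of these shifts was not tested. Leaving out 1 library gave 1359 to 3827 genes in peritumoral hepatocytes, 2821 to 4842 at 24 h and 0 to 1344 between the times; 0 to 4, 0 to 7 and 0 to 16 sterol members; and 0 to 3 fatty acid members in peritumoral hepatocytes and 0 to 9 between the times. A group left with 1 library is assumed there to vary like the others. With the replicate block 0 sterol members were called in peritumoral hepatocytes and 1 at 24 h (Sc5d, not Sqle); same-numbered libraries correlated at -0.22, 0.17 and 0.10 in hepatocytes and 0.02 to 0.03 in livers, so the numbers were not taken as pairs.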
